A study of Mus musculus with 10 samples.

Results

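The gp130 receptors and the JAK and STAT proteins behind them were followed in single Bergmann glial cells at P6 and P30. The set held 8 genes: the receptor genes Il6st, Lifr, Cntfr and Osmr, the kinase genes Jak1 and Jak2, the transcription factor gene Stat3 and the inhibitor gene Socs3. They were taken by name, and their values came from every probe set that was annotated to 1 gene only and had a value in every cell. This gave 24 probe sets of 43608 complete ones and 8 genes of 17919. No member probe set was lost to a blank, and no member value lay at the lower limit of the data.

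Each of the 10 arrays was made from the amplified cDNA of 1 cell, with 5 cells at P6 and 5 at P30. All mice were of the GFAP-GFP reporter line, in which the Gfap promoter drives green fluorescent protein, and no further allele or treatment is given. Cells came from the mid-sagittal cerebellum and were picked by their fluorescence and shape. Their cDNA was checked for glial markers, Gfap among them, and for neuronal ones before it was put on an array. P6 falls within postnatal growth of the mouse cerebellum and P30 after it. The comparison asks which transcripts differ between developing and mature Bergmann glia. The labels call the cells biological replicates but name no animal, so each age was treated as 1 sample. No p-value was therefore computed, and every SD below describes the spread over 5 cells. Cells are numbered as in the labels.

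The values are ratios on a linear scale, in which each probe set was divided by a median of its own. In most probe sets the median of the P6 cells is 1. A ratio can thus be compared between cells but not between probe sets or genes, and it gives no level of a transcript. Differences are given as the mean log2 ratio at P6 minus that at P30, so that negative values are higher at P30. A probe set was counted as changed in size when the difference passed 3-fold, and its ages were called apart when all 5 cells of one age lay above all 5 of the other.

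Cytokines of the interleukin-6 family signal through gp130, the protein made from Il6st. Ciliary neurotrophic factor binds the receptor encoded by Cntfr, which has no signalling part of its own and recruits gp130 and the LIF receptor. The oncostatin M receptor pairs with gp130 for another cytokine of the family. JAK1 and JAK2 are bound to the inner part of these receptors, and STAT3 is phosphorylated there, moves to the nucleus and switches on genes that include Gfap and Socs3. SOCS3 in turn binds gp130 and the kinases and shuts the signal off. In developing brain this route is known for driving precursors towards astrocytes, and in the adult it is known for its part in reactive astroglia.

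Among the members, Cntfr had higher ratios at P30 on both of its probe sets, by 3.81-fold and 3.33-fold. The 4 probe sets of Il6st went in both directions, from 9.54-fold higher at P30 to 2.02-fold higher at P6. Those of Stat3 averaged close to equal or somewhat higher at P6, and those of Socs3 were mostly higher at P6 but by less than 2-fold. Of the 24 probe sets, 3 were over 3-fold higher at P30, against 6.6% of all complete probe sets, and 0 were over 3-fold higher at P6, against 11.1%. In either direction this was 12.5% of the members and 17.7% of all probe sets. A further 20 member probe sets differed by less than 2-fold, 12 were higher at each age, and their median difference was −0.03, beside 0.01 over all probe sets. Ages lay apart for 1 member probe set, with P6 above, where 1.79% of all probe sets lay apart that way and 2.99% either way. The plot of differences by probe set shows how far each of them moves when 1 cell is left out.

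**Figure D1:**
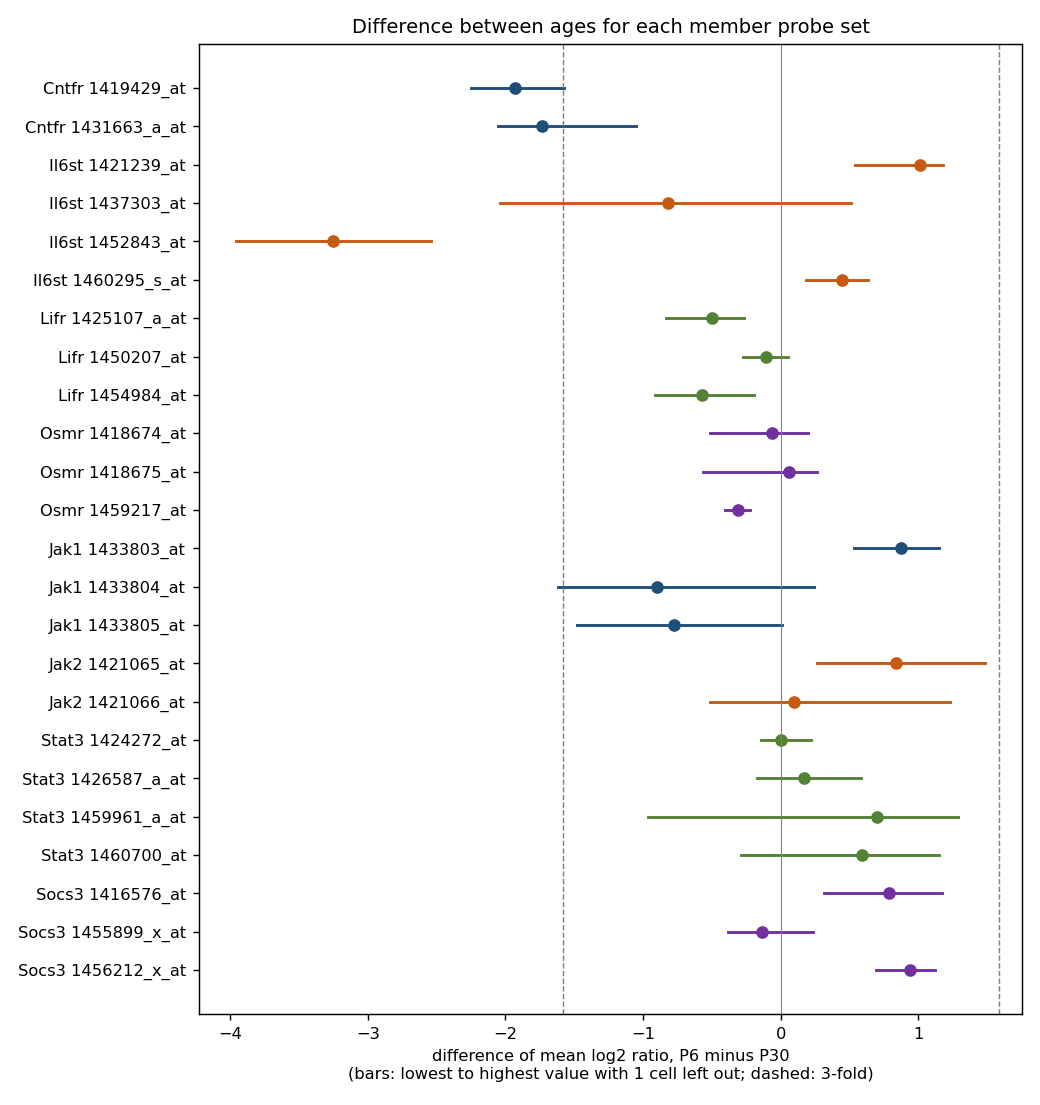
Difference of mean log2 ratio, P6 minus P30, for the 24 member probe sets (points), with the lowest and highest value after leaving out 1 of the 10 cells (bars). Dashed lines mark 3-fold. The points of Cntfr and of Il6st 1452843_at lie beyond the left line, and 12 points lie on each side of 0.

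Cntfr, the ligand-binding subunit, had the clearest difference of the 8 genes. On probe set 1419429_at, the ratios were 0.65, 1.0, 1.73, 0.718 and 1.54 in P6 cells 1 to 5 and 2.99, 3.6, 5.32, 10.7 and 1.63 in P30 cells 1 to 5. Only P30 cell 5 fell within the P6 range. On probe set 1431663_a_at, the P6 ratios were 0.444, 1.0, 1.49, 2.64 and 0.903 and the P30 ratios 1.7, 3.92, 2.5, 24.1 and 1.59. Here P6 cell 4 lay above 3 of the P30 cells. The differences were −1.93 and −1.73. When both probe sets were averaged, every P30 cell lay above every P6 cell, at 0.10 ± 0.61 (SD, n = 5) at P6 and 1.93 ± 1.27 (SD, n = 5) at P30 on the log2 scale. The gap was narrow, from 0.68 in P6 cell 3 to 0.69 in P30 cell 5. The gene differed by −1.83, or 3.56-fold. Of the 17919 genes, 4.93% were over 3-fold higher at P30 and 1.41% had all P30 cells above all P6 cells. Of the 4624 genes with 2 probe sets, 82, or 1.77%, had both over 3-fold higher at P30.

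The size of the Cntfr difference rested in part on P30 cell 4, which held the highest ratio of both probe sets. Without it, the gene differed by −1.31, or 2.48-fold, and neither probe set reached 3-fold, at −1.57 and −1.05. Without P30 cell 5, in contrast, the difference was −2.14. In P30 cell 4, 7 of 11 oligodendrocyte markers lay above the median of the other P30 cells, with a summed ratio of 93.6 against 11.1 to 34.6. The median deviation over the list was 0.46 on the log2 scale. The part of these markers in the Cntfr values was not tested. Scaling the arrays on hybridisation controls gave 2.94-fold, just under the 3-fold line.

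**Figure D2:**
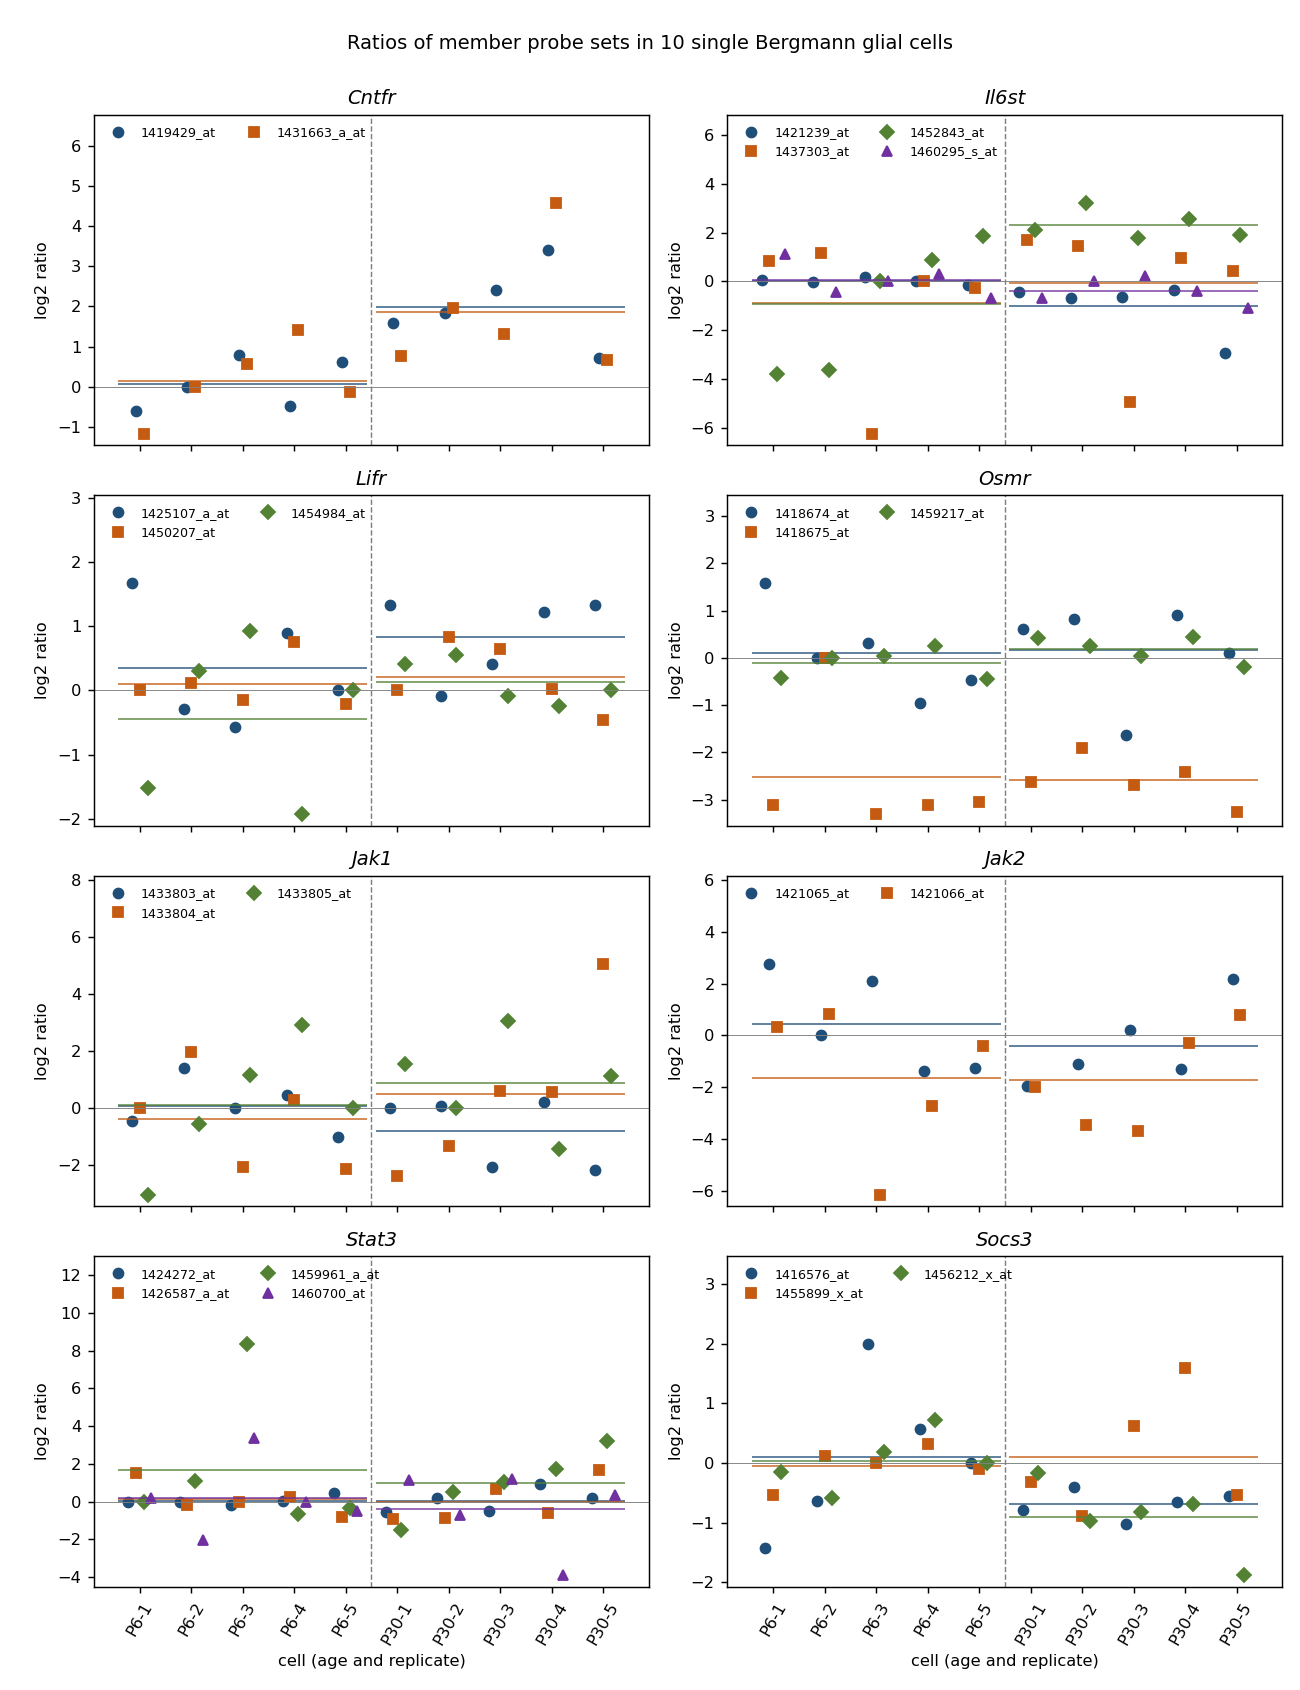
Log2 ratio of every member probe set (symbols) in each of the 10 cells, 5 at P6 and 5 at P30, with the mean of each age as a horizontal line. The P30 lines of both Cntfr probe sets lie near 2, the Il6st probe sets separate in both directions, and single cells stand far from the rest for Stat3 (P6 cell 3) and Jak1 (P30 cell 5).

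Il6st encodes gp130, the signalling subunit that the whole family shares, and its probe sets disagreed. On 1452843_at, the P6 ratios were 0.0721, 0.0802, 1.0, 1.82 and 3.66, and the P30 ratios were 4.31, 9.4, 3.45, 5.87 and 3.7. The P6 cells spread over a wide range while the P30 cells kept close together, and 4 of 5 P30 cells lay above the highest P6 cell. The means were −0.94 ± 2.62 (SD, n = 5) and 2.31 ± 0.59 (SD, n = 5), a difference of −3.25. It stayed between −3.96 and −2.54 when any 1 cell was left out. As medians over the cells, which give the 2 lowest P6 cells less weight, the difference was 4.31-fold.

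Probe set 1421239_at of Il6st went the other way. The P6 ratios were 1.04, 0.974, 1.14, 1.0 and 0.892, and the P30 ratios 0.741, 0.622, 0.636, 0.781 and 0.132. This was the member probe set whose ages lay apart, with all P6 cells within 0.892 to 1.14 and all P30 cells lower. The difference was 1.02, or 2.02-fold, and fell to 1.45-fold without P30 cell 5, after which the ages still did not overlap.

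The other 2 probe sets of Il6st did not separate the ages. On 1460295_s_at, the P6 ratios were 2.15, 0.729, 1.0, 1.24 and 0.617 and the P30 ratios 0.62, 1.0, 1.15, 0.753 and 0.474, a difference of 0.45. On 1437303_at, the P6 ratios were 1.77, 2.25, 0.0132, 1.0 and 0.823 and the P30 ratios 3.25, 2.75, 0.0321, 1.95 and 1.33. Cell 3 of each age was far below the rest, and the difference of −0.82 turned to 0.51 without P6 cell 3 and grew to −2.04 without P30 cell 3. Averaged over its 4 probe sets, Il6st was −0.45 ± 0.74 (SD, n = 5) at P6 and 0.21 ± 0.82 (SD, n = 5) at P30, a difference of −0.65 that hides the opposite directions. Of the 1041 genes with 4 probe sets, 176, or 16.9%, also had 1 probe set at least 2-fold higher at P6 and another at least 2-fold higher at P30. The differences of the 4 Il6st probe sets spanned 4.27 on the log2 scale, a range that 84 of these genes, or 8.07%, reached. RNA was primed from the poly-A tail and gave short cDNA, and where each probe set lies on the transcript was not analysed here.

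Lifr encodes the LIF receptor, which joins gp130 when LIF or ciliary neurotrophic factor binds. All 3 of its probe sets had a higher mean at P30, by −0.50 on 1425107_a_at, −0.10 on 1450207_at and −0.57 on 1454984_at. On 1425107_a_at, the P6 ratios were 3.19, 0.823, 0.673, 1.86 and 1.0 and the P30 ratios 2.51, 0.938, 1.33, 2.34 and 2.51. On 1450207_at, the P6 ratios were 1.0, 1.09, 0.904, 1.69 and 0.865 and the P30 ratios 1.01, 1.78, 1.57, 1.02 and 0.724. On 1454984_at, the P6 ratios were 0.349, 1.23, 1.91, 0.263 and 1.0 and the P30 ratios 1.33, 1.47, 0.939, 0.846 and 1.0. The ages overlapped on each probe set. Their average did not, because highs on one probe set met lows on another in the same cell. The gene value was 0.00 ± 0.08 (SD, n = 5) at P6 and 0.39 ± 0.12 (SD, n = 5) at P30, only 1.31-fold apart. It was 1.08-fold when arrays were scaled on hybridisation controls and 1.46-fold when they were centred on their medians.

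Osmr, the oncostatin M receptor, differed little on any probe set. On 1459217_at, the P6 ratios were 0.746, 1.0, 1.03, 1.19 and 0.73 and the P30 ratios 1.34, 1.19, 1.03, 1.35 and 0.877, a difference of −0.31. On 1418674_at, the P6 ratios were 2.99, 1.0, 1.25, 0.512 and 0.724 and the P30 ratios 1.52, 1.77, 0.321, 1.87 and 1.07, a difference of −0.06. On 1418675_at, P6 cell 2 had a ratio of 1.0, the other P6 cells had 0.116, 0.101, 0.116 and 0.12, and the P30 cells had 0.162, 0.268, 0.154, 0.188 and 0.104. That 1 P6 cell brought the means of this probe set together at a difference of 0.06, which was −0.57 without it. The gene differed by −0.10, or 1.07-fold. Over the 10 probe sets of Il6st, Lifr and Osmr, 7 were higher at P30 and 3 at P6, with a median of −0.21.

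The kinase genes varied more between cells of an age than between ages. Jak1 had a difference of 0.87 on 1433803_at, where the P6 ratios were 0.72, 2.63, 1.0, 1.36 and 0.491 and the P30 ratios 0.996, 1.05, 0.233, 1.14 and 0.221. On 1433804_at, the P6 ratios were 1.0, 3.89, 0.235, 1.2 and 0.223 and the P30 ratios 0.191, 0.388, 1.52, 1.47 and 33.5. P30 cell 5 was 44.4-fold above the P30 median without it on this probe set, and the difference turned from −0.90 to 0.24 without it. On 1433805_at, the P6 ratios were 0.12, 0.676, 2.2, 7.44 and 1.0 and the P30 ratios 2.89, 1.0, 8.31, 0.368 and 2.19, a difference of −0.77. The probe sets ordered the cells differently, since P30 cell 5, the highest on 1433804_at, was the lowest on 1433803_at. The gene averaged −0.08 ± 1.11 (SD, n = 5) at P6 and 0.18 ± 0.75 (SD, n = 5) at P30, a difference of −0.27.

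Jak2, the other kinase, showed the same scatter. On 1421065_at, the P6 ratios were 6.83, 1.0, 4.31, 0.383 and 0.423 and the P30 ratios 0.257, 0.468, 1.16, 0.408 and 4.55, a difference of 0.84. On 1421066_at, the P6 ratios were 1.24, 1.76, 0.0141, 0.15 and 0.756 and the P30 ratios 0.25, 0.0903, 0.0784, 0.807 and 1.73, a difference of 0.10. That difference was 1.23 without P6 cell 3, and by medians over the cells this probe set was 3.02-fold higher at P6. P6 cell 3 was among the highest cells on the first probe set and the lowest on the second, whereas P30 cell 5 was the highest P30 cell on both. As a gene, Jak2 differed by 0.47, from −0.06 without P6 cell 1 to 1.11 without P30 cell 5.

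Stat3, the transcription factor of the route, had 4 probe sets with a higher mean at P6, by 0.00 to 0.70. On 1424272_at, the steadiest of them, the P6 ratios were 0.985, 1.0, 0.876, 1.02 and 1.37 and the P30 ratios 0.689, 1.15, 0.696, 1.91 and 1.14, with nearly equal means. On 1426587_a_at, the P6 ratios were 2.86, 0.888, 1.0, 1.2 and 0.578 and the P30 ratios 0.533, 0.552, 1.61, 0.659 and 3.15, a difference of 0.17. The ages overlapped on both probe sets.

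The remaining probe sets of Stat3 had their highest ratio in P6 cell 3. On 1459961_a_at, the P6 ratios were 1.0, 2.17, 325, 0.633 and 0.781 and the P30 ratios 0.357, 1.4, 2.03, 3.3 and 9.12. P6 cell 3 lay 368-fold above the P6 median without it. The difference of 0.70 became −0.96 without this cell, so its direction depended on 1 cell. On 1460700_at, the P6 ratios were 1.16, 0.244, 10.2, 1.0 and 0.711 and the P30 ratios 2.23, 0.602, 2.32, 0.067 and 1.26, a difference of 0.59. It became −0.19 without P6 cell 3, −0.29 without P30 cell 4 and −0.33 by medians over the cells. The gene averaged 0.53 ± 1.34 (SD, n = 5) at P6 and 0.16 ± 0.79 (SD, n = 5) at P30, with a difference of 0.37 that became −0.22 without P6 cell 3. In this cell, 8 of 11 microglial markers lay above the median of the other P6 cells, at a median of 0.75 on the log2 scale, and their summed ratio was 18.3 against 9.22 to 27.5 over all P6 cells. Their part in the Stat3 values was not tested.

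Socs3, which encodes the feedback inhibitor and is itself induced by STAT3, was somewhat higher at P6. On 1456212_x_at, the P6 ratios were 0.897, 0.665, 1.14, 1.64 and 1.0 and the P30 ratios 0.886, 0.511, 0.566, 0.618 and 0.271. Of the P6 cells, 4 lay above the highest P30 cell, and the difference was 0.94, or 0.70 without P30 cell 5. On 1416576_at, the P6 ratios were 0.372, 0.645, 3.98, 1.49 and 1.0, while the P30 ratios kept to 0.581, 0.754, 0.49, 0.638 and 0.679, a difference of 0.79. On 1455899_x_at, the P6 ratios were 0.685, 1.08, 1.0, 1.24 and 0.937 and the P30 ratios 0.805, 0.537, 1.53, 3.03 and 0.688, a difference of −0.14. The last probe set thus went the other way, with its highest ratio in P30 cell 4. Without this cell its difference was 0.24, and by medians over the cells it was 0.31, both higher at P6. The gene was 0.03 ± 0.60 (SD, n = 5) at P6 and −0.50 ± 0.41 (SD, n = 5) at P30, and its difference of 0.53, or 1.44-fold, stayed between 0.36 and 0.71 when 1 cell was left out. The ages overlapped. Probe sets ending in _x_at can share sequence with other transcripts, so their values are less certain.

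At the level of genes, 5 members were higher at P30 and 3 at P6, with a median of −0.18 beside 0.05 over all genes. Cntfr was the only member over 3-fold, where 14.3% of all genes were. Cntfr and Lifr were the 2 whose ages lay apart, where 3.54% of all genes did. On no single probe set of either gene did the ages lie apart. Whether the averaged values stay apart under other array scalings was not analysed here. The spread between cells was not unusual for these data. Of the 24 member probe sets, 9 had a cell over 8-fold above what the remaining 4 cells of that age had as a median, as did 32.2% of all probe sets, and the median SD within ages was 1.00 for the members and 1.21 for all.

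Cells differed in which members they favoured, and P30 cell 5 stood out. It had the highest P30 gene value of Jak1 (1.34), Jak2 (1.49) and Stat3 (1.34) on the log2 scale. It also had the lowest P30 gene value of Cntfr (0.69), Lifr (0.29) and Socs3 (−0.99). In the same cell, 13 of 14 endothelial and pericyte markers were above the median of the other P30 cells, with a median deviation of 2.67 over the list on the log2 scale and a summed ratio of 226 against 12.7 to 87.4 in the other P30 cells and 13.4 to 79.5 in the P6 cells. None of these markers was at the lower limit on all its probe sets in any cell. Of the astroglial markers, 2 of 14 were above that median, with a median deviation of −0.83, and neuronal markers had a median deviation of 0.78 and a summed ratio of 31.0. Granule neuron markers summed to 67.2, against 7.33 to 11.1 in the other P30 cells. Only 5 of these 9 markers were above the median of those cells, with a median deviation of 0.12. The array median of the cell was the lowest of all, 0.726 against 0.91 to 1.0. The part of these in the member values was not tested. Without this cell, Jak1 as a gene turned from −0.27 to 0.02, Jak2 grew from 0.47 to 1.11 and Stat3 from 0.37 to 0.66. Cntfr went from −1.83 to −2.14, Lifr from −0.39 to −0.42 and Socs3 from 0.53 to 0.41. Of the probe sets, Jak2 1421065_at went from 0.84 to 1.49, Jak2 1421066_at from 0.10 to 0.73 and Stat3 1426587_a_at from 0.17 to 0.58.

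P6 cell 5 carried more neuronal signal, with 9 of 12 neuronal markers above the median of the other P6 cells, a median deviation of 2.47 over the list and a summed ratio of 67.2 that no other P6 cell reached. One of them, Nefm, was at the lower limit in 6 of 10 cells. In this cell 7 of 24 member probe sets were above the median of the other P6 cells, the fewest of any cell, and their median deviation was −0.30. The part of the neuronal markers in these values was not tested. The most, 17 of 24 against the median of the other P30 cells, were found in P30 cell 4. Astroglial markers summed to 12.5 to 20.2 at P6 and 15.6 to 38.2 at P30, and none was at the lower limit on all its probe sets in any cell, although ratios do not show how strongly a marker was expressed. Purkinje neuron and granule neuron lists stayed within a median of −0.96 to 0.62 in every cell, although the summed Purkinje ratio reached 139 in P6 cell 5 and 164 in P30 cell 5.

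**Figure D3:**
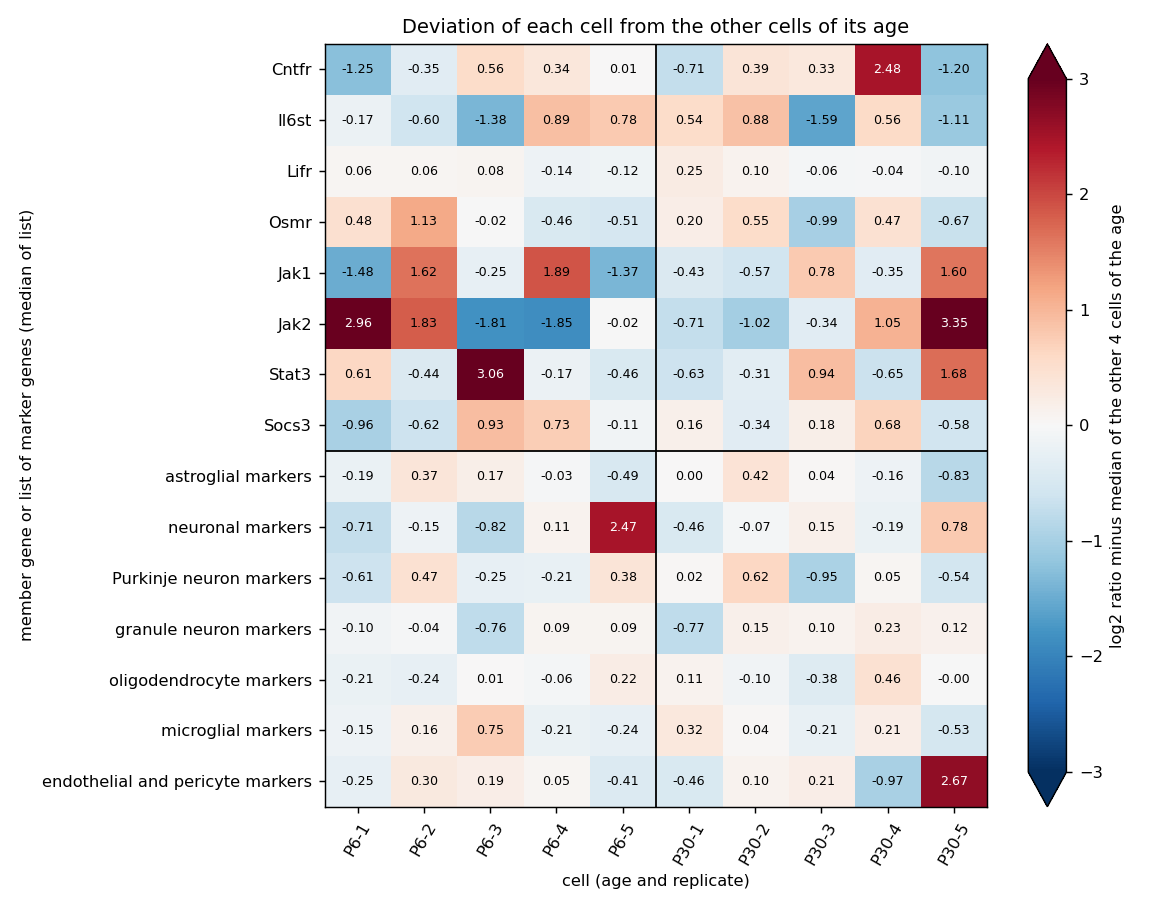
Log2 ratio of each member gene, or median over each list of cell type markers, in a cell minus the median of the 4 cells left of that age (numbers and colour; colours end at −3 and 3). P30 cell 5 is high in the endothelial and pericyte list and in Jak2, Stat3 and Jak1, P6 cell 3 is high in Stat3, and P6 cell 5 is high in the neuronal list.

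The wider pathway was read from 6 lists with 71 genes, of which 60 were measured and the rest were not analysed here. Most of these genes, like the members, stayed under 3-fold. The median difference of each list lay between −0.41, for the other JAK and STAT genes, and 0.20, for the SHP2 and ERK branch, beside 0.05 over all genes. Genes over 3-fold are set against the 9.39% of all genes that were higher at P6 and the 4.93% higher at P30 by that rule.

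Of the ligands, 6 of 10 were measured and 1 passed 3-fold. Ctf1, which encodes cardiotrophin 1, was 3.87-fold higher at P6, with ratios of 1.52, 1.0, 0.722, 1.24 and 0.621 at P6 and 0.905, 0.125, 0.62, 0.156 and 0.0888 at P30. P30 cells 2, 4 and 5 were far below the P6 cells, cell 3 was level with the lowest of them, and cell 1 lay within their range. Without P30 cell 5 the fold was 2.99, and without P30 cells 4 and 5 it was 2.34. Ebi3, the shared subunit of interleukin-27 and interleukin-35, was 2.53-fold higher at P30 and did not pass. Of 3 further receptor subunits measured, none passed, with Il27ra at 0.90 and Il6ra, the interleukin-6 receptor, at −0.20.

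Of the other JAK and STAT genes, 7 of 8 were measured, 6 had a higher mean at P30 and 1 passed 3-fold. Stat2, a transcription factor of interferon signalling, was 3.06-fold higher at P30. On its probe set 1421911_at, which differed by 5.38-fold, the ratios were 0.927, 0.901, 2.07, 1.07 and 0.292 at P6 and 0.921, 14.3, 2.81, 3.06 and 21.6 at P30, the highest again in P30 cell 5. The other probe set, 1450403_at, differed by 1.74-fold, with ratios of 0.662, 3.79, 5.05, 1.0 and 0.994 at P6 and 6.51, 2.01, 1.23, 3.04 and 4.08 at P30. Its ages overlapped, and its highest ratio was in P30 cell 1. With 1 cell left out the gene ranged from 2.42-fold, without P30 cell 5, to 3.91-fold, without P6 cell 3. Stat5a, at −1.23, scattered over both ages.

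Of the inhibitors (SOCS and PIAS proteins and the phosphatases that act on this route), all 14 were measured and none passed 3-fold. The largest differences were those of Socs7 at 0.84 and Socs6 at 0.76, both less studied relatives of SOCS3. Socs7 again hid probe sets of opposite direction, with 2 over 3-fold higher at P6 and 1 over 3-fold higher at P30. In the SHP2 and ERK branch, by which gp130 also signals, 10 of 15 genes were measured and 1 passed. Map2k2, which encodes a kinase of ERK, was 3.8-fold higher at P6, and its relative Map2k1 was 2.18-fold higher at P30. P6 cell 5 was the lowest P6 cell for both, and without it Map2k2 was at 6.53-fold and Map2k1 at 1.35-fold. On Map2k2 probe set 1460636_at, P6 cell 5 and P30 cell 4 were at the limit of 0.01. Map2k2 was at 3.01-fold with a limit of 0.1 and at 2.62-fold with a pseudocount of 0.1.

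Genes that STAT3 is known to induce held the largest differences, in both directions. All 20 were measured, with 10 higher at each age and a median of −0.04. Higher at P6 by over 3-fold were 4 of them, and higher at P30 were 3. A2m, the protease inhibitor alpha-2-macroglobulin, was 31.6-fold higher at P30, with ratios of 14.7, 0.917, 0.775, 1.0 and 2.75 at P6 and 64.4, 82.3, 71.7, 64.3 and 37.1 at P30. Its ages lay apart. The fold was 52.3 without P6 cell 1 and 15.9 by arithmetic means. Ccnd1, which encodes the cell cycle protein cyclin D1, was 12.3-fold higher at P6 over 3 probe sets. Its gene values were −0.57, −1.07, 0.89, 0.10 and 0.16 at P6 and −3.63, −4.17, −3.82, −4.47 and −2.49 at P30 on the log2 scale, again without overlap. On 1417420_at, 3 P30 ratios were at the limit of 0.01, and the gene was at 6.85-fold with a limit of 0.1 and at 5.18-fold with a pseudocount of 0.1.

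Timp1 and Fos were also lower at P30, at or near the limit of the data. Timp1, an inhibitor of matrix metalloproteinases, had ratios of 1.0, 2.27, 0.0102, 1.65 and 0.641 at P6, and at P30 a ratio of 0.0249 in cell 2 while the other 4 cells were at the limit of 0.01. Fos, an immediate early gene, had ratios of 0.194, 1.81, 1.0, 1.23 and 0.0268 at P6 and 0.0362, 0.0197, 0.01, 0.01 and 0.0189 at P30. Low P6 cells overlapped with P30 for both genes. Their differences of 5.31 and 4.61 depend on where the limit was set, and with a limit of 0.1 they were 2.91 and 2.42.

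Icam1, Bcl3 and Birc5, also past 3-fold, and Cebpd, whose ages lay apart, were chosen after their values were seen. Icam1, an adhesion molecule that endothelial cells also express, was 7.87-fold higher at P30, with ratios of 3.85, 4.48, 5.48, 5.07 and 36.0 there and 1.89 at most at P6. The highest ratio was that of P30 cell 5, and the difference was −2.39 without it. Bcl3, a regulator of NF-kappaB, was 3.52-fold higher at P30 and its ages lay apart, and without P6 cell 4 it was at 2.33-fold. Cebpd, a transcription factor of the acute phase, was 2.1-fold higher at P30, a smaller difference. Birc5, which encodes survivin, was 3.59-fold higher at P6, but the P6 cells ranged from −3.25 to 5.04 on the log2 scale. It was at 1.7-fold without P6 cell 5 and at 2.63-fold without P6 cell 1.

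Gfap is both a STAT3 target and the gene whose promoter marked the cells. On 1426508_at, its ratios were 2.04, 0.0333, 1.0, 0.0364 and 1.15 at P6 and 1.91, 0.0411, 1.68, 0.0328 and 1.02 at P30. Cells 2 and 4 of each age were far below the other cells, and the means of the ages differed by −0.13. On 1426509_s_at, the same cells were again the lowest and the difference was −0.41. On 1440142_s_at, 3 P6 cells were at the limit of 0.01 and the difference was −3.87, so that the gene value rested mostly on this probe set. The gene averaged −2.51 ± 3.10 (SD, n = 5) at P6 and −1.03 ± 1.96 (SD, n = 5) at P30, so that its difference of −1.47 was smaller than the spread between cells.

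**Figure D4:**
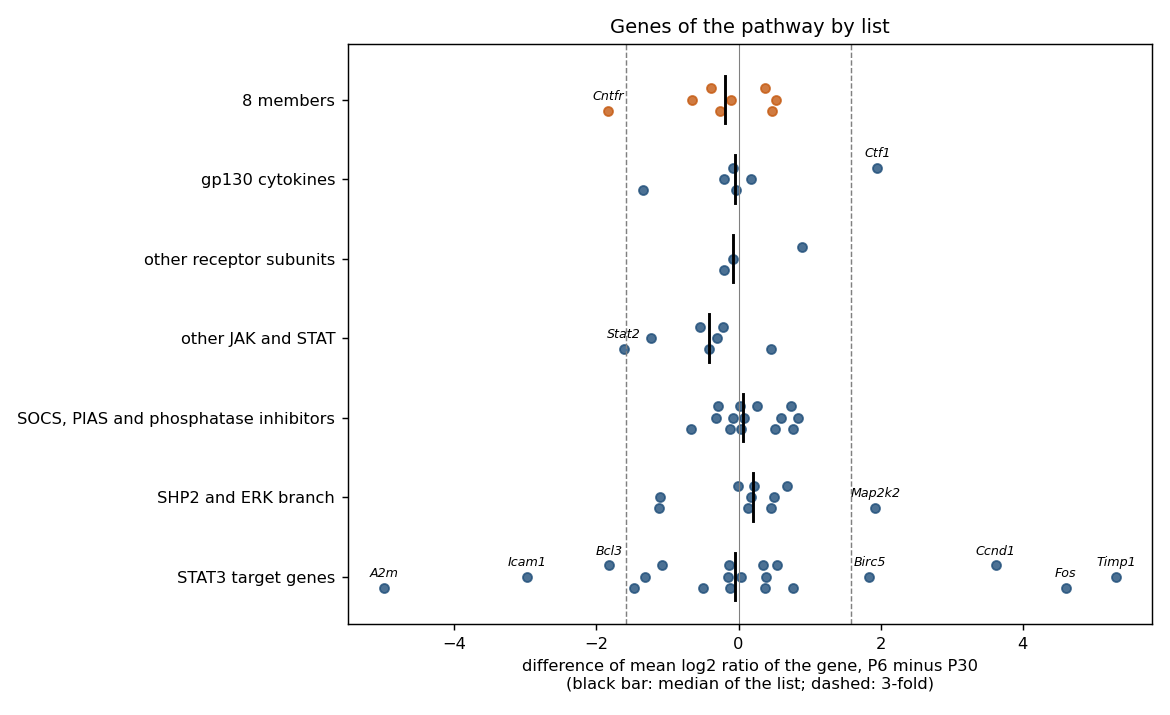
Difference of mean log2 ratio of each measured gene, P6 minus P30, for the 8 members (orange) and the 6 pathway lists (blue), with the median of each list as a black bar. Dashed lines mark 3-fold and genes beyond them are named. The medians lie close to 0, and the genes farthest from 0 are STAT3 targets on both sides.

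STAT proteins bind the palindrome TTCNNNGAA, which reads alike on both strands. It was searched in RefSeq promoter windows of build GRCm38.p6, from 250 bases before to 50 after the start site. All 8 members had a window. Socs3 was the 1 member that held the motif, where 9.55% of 27025 genes did. Of 17 STAT3 target genes with a window, 3 held it: Gfap, Icam1 and Bcl6, the last in 4 places. The windows of Socs3, the feedback gene, and of Gfap and Icam1, whose values are given above, are shown with the motif in capitals, 5′ to 3′ on the strand of the gene.
Socs3: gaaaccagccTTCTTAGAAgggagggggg
Gfap: atgggggtgcTTCCAGGAAgtcaggggca
Icam1: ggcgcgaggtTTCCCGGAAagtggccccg
The Socs3 window is chr11:117969502-117969530 on the minus strand, with the motif at −154 to −146 from the start site. That of Gfap is chr11:102897184-102897212 on the minus strand, with the motif at −2 to 7, across the start of the transcript. That of Icam1 is chr9:21015888-21015916 on the plus strand, with the motif at −42 to −34. Of the 4 genes with the motif, Socs3 differed by 0.53, Gfap by −1.47, Icam1 by −2.98 and Bcl6 by −0.50. A match describes these letters only, and no binding was measured.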

How the data were processed

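Bergmann glial cells of GFAP-GFP mice were profiled on Affymetrix Mouse Genome arrays, 1 array per cell. According to the authors, cDNA was primed with oligo-dT, kept short and amplified by PCR. Scans went through RMA in GeneSpring GX (version of RMA and genome build not given in the sources used here). Anything below 0.01 was raised to 0.01, arrays were scaled to a common median, and probe sets were then divided by a median across the samples. The values used here are these ratios, on a linear scale, and the paper states that the original array files were deposited as well. In 69.5% of complete probe sets the median of the P6 cells alone is 1, so the divisor was not, or not in every probe set, that of all samples. Amplification and the division mean that ratios carry no transcript level. The number of arrays limits the precision, and signal against background was not analysed here.

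Of 45101 probe sets, 1493 with a blank were left out. Symbols of the platform annotation were updated to GRCm38.p6: 34958 probe sets had 1 gene, 932 several and 9211 none. Values of 0 (10 in all) were set to 0.01, at which 1.07% of P6 and 1.73% of P30 values lay. Log2 ratios of all complete single-gene probe sets of a gene were averaged. Ages were compared by the difference of means and the 3-fold rule over all probe sets, without a test, with pandas 2.3.3, NumPy 2.4.6 and Matplotlib 3.10.9 under Python 3.11.15. The calculation was tested on simulated data. Members, gene lists and markers were chosen with earlier results of these data known. The genes named are all members, the 2 of each list with the largest difference, those over 3-fold up to 4 per list, Gfap, and the 3 genes most like Il6st and Stat3. Icam1, Bcl3, Cebpd, Birc5 and Bcl6 lie outside this rule and were named after their values were seen. Alternatives were array scaling, floor, pseudocount, medians or arithmetic means, a 2-fold rule, other probe set choices and leaving out cells.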

Additional observations from a re-analysis of the deposited data

Results flagged for a closer look

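In groups of 5 cells, a cell was singled out where its gap to the nearest other cell, as a share of the range of the group on the log2 scale, was above 0.71. Chance alone gives about 1 in 20 such groups for evenly scattered values, but here 10.8% of the groups over all complete probe sets and 9.26% of those over all genes passed. Of the members' 48 probe set groups, 5 passed. Of 54 groups of gene values, from the members and the named pathway genes together, 8 did. Most of those pathway genes were named for the size of their difference or after their values were seen, unlike the genes of the background share. Gene values share cells with the probe sets they hold, so these counts overlap. Among the members, P30 cell 5 was low on Il6st 1421239_at, with a share of 0.872. On Il6st 1437303_at, cell 3 was low at both ages, with shares of 0.804 at P6 and 0.806 at P30. On Osmr 1418675_at, P6 cell 2 was high, with a share of 0.925. P6 cell 3 was high on Stat3 1459961_a_at, with a share of 0.803, and for the Stat3 gene value, with 0.772.

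Among the pathway genes, P6 cell 4 was high for Stat5a (share 0.852) and low for Bcl3 (0.816). P30 cell 1 was high for Socs7 (0.725) and P6 cell 5 low for Map2k1 (0.714). For Timp1, P6 cell 3 was low (0.766), and P30 cell 2 was the one P30 cell above the limit of the data (1.0), a share fixed by the 4 cells at that limit. P30 cell 5 was high for Icam1 (0.842).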

How the results depend on the processing

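Of 1043 values recomputed for 55 results under 21 alternatives, 1012 stayed within the spread between cells or within 1.5 times the count. The other 31 moved beyond it, and 0 of the differences over 3-fold changed sign. That spread is wide, so smaller differences could change sign and still count as within it. Without P6 cell 3, Stat3 as a gene went from 0.37 to −0.22 and Il6st 1437303_at from −0.82 to 0.51. Cntfr at 2.48-fold without P30 cell 4 also counted as within the spread. The 0 member probe sets over 3-fold higher at P6 were 1 by medians over the cells, 1 by arithmetic means, 1 with a 2-fold rule, 1 without P30 cells 4 and 5, and 2 without cell 5 of each age, the last 2 settings chosen after seeing the marker genes. With 1 cell left out the count was 0 to 0. The 3 probe sets over 3-fold higher at P30 were 1 to 4 with 1 cell left out, with the lowest without P30 cell 4. The 1 probe set with its ages apart became 2 with arrays centred on their medians or on hybridisation controls, 2 without P30 cells 4 and 5, 3 without cell 5 of each age, and 1 to 2 with 1 cell left out. The median member difference of −0.03 was 0.24 on hybridisation controls, −0.22 by medians over cells, 0.16 without P30 cells 4 and 5, and −0.14 to 0.08 with 1 cell left out. The cause of these moves was not tested, apart from the scalings, which shifted all differences by −0.16 (array medians) and 0.28 (hybridisation controls). Of all probe sets over 3-fold, 62.6% were higher at P6, against 54.3% and 76.1% under these scalings. Among single genes and probe sets, 11 of 970 values moved, such as Stat3 1459961_a_at from 0.70 to 4.35 by arithmetic means. No paired analysis was possible because the results come from no test and a shared number names cells whose link, if any, is not given. Some probe sets ran alike by number. Cells 2 and 4 of each age were the lowest on Gfap 1426508_at, and cell 3 of each age was on Il6st 1437303_at. Others did not, such as Stat3 1459961_a_at, which was highest in P6 cell 3 and in P30 cell 5. Whether the number marks a shared animal or batch was not tested.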

Other observations

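Genes most like Il6st and Stat3 across the 10 cells were ranked by the root mean square difference of log2 ratios, after each gene was centred on its own mean. For Il6st these were Swap70 at 0.34, 4931403M11Rik at 0.39 and Mc3r at 0.40, where the median over genes was 1.29. For Stat3 they were Nanos1 at 0.35, Cp at 0.42 and Micall1 at 0.44, with a median of 1.44. Other members were not among the nearest. To Il6st, the closest member was Lifr at 0.71, and to Stat3 it was Socs3 at 1.00. A gene with equal values in all cells would be at 0.77 from Il6st and at 1.00 from Stat3. Lifr was thus only a little closer than such a gene, and Socs3 was no closer. These are descriptions over cells of 2 ages.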
